A study of Mus musculus with 495 samples.

Results

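Neurog3-high cells are cells of the mouse embryonic pancreas that were chosen by their level of Neurog3, at 1000 CPM or more (CPM, counts scaled to a total of 1000000 in a cell). They numbered 33 on plate EA01, 36 on EA02, 39 on EA03, 5 on EA05, 15 on EA06 and 23 on EA07, which is 35.2% of the 429 cells of these plates, and the whole series held 495 cells. The rule used the level of Neurog3 alone, so that level describes the selection and is not a finding. The remaining 278 cells of the same plates were the comparison, taken plate by plate. Below, members means the Neurog3-high cells.

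The cells had been isolated from embryonic pancreas and read one by one with Smart-Seq2, a plate method that covers whole transcripts and has no molecular identifiers. The E15.5 plates (E for days of embryonic development) held 300 cells of the genotype Neurog3-eGFP, a knock-in of a green fluorescent reporter, on plates coded Neurog3 (EA01 and EA03) or endocrine (EA02 and EA05). The E17.5 plates, EA06 with 57 and EA07 with 72 cells, were of the genotype Neurog3-Cre with Rosa-mTmG, in which cells that have made Cre, and their descendants, carry a membrane-bound green protein. Both genotypes carry a transgene at or driven by Neurog3, and no wild-type cells were among those compared. No animal, litter, zygosity or sort gate is named in the labels, so each group was 1 sample, no p-value was computed, and a spread between plates may be technical. The count table names the cells of EA06 and EA07 with the knock-in word too, and the groups here follow the labels.

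Neurog3 encodes a basic helix-loop-helix transcription factor on which the endocrine cells of the pancreas depend. It is made for a short time in cells that leave the duct-like epithelium, and it switches on factors such as Neurod1, Nkx2-2 and Pax4 before any hormone is made. Notch signalling acts on this step through Hes1, a repressor of Neurog3, while the Notch ligand gene Dll1 is a target of Neurog3. The proteins of this family bind short DNA motifs called E-boxes, and CAGATG is a preferred form for Neurog3 and its relatives. Read on the other strand the same motif is CATCTG.

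Start-site sequences are shown because the results below turn on genes that were higher in the Neurog3-high cells. Each is the 250 bases before an annotated start in RefSeq (GRCm38.p6), written along the gene's strand, with CAGATG or CATCTG in capitals. The first is Neurog3 itself, which has neither form there, and the others are a corepressor gene and a pair of endocrine transcription factor genes that were higher and have 1 such motif in the window.
Neurog3, chr10:62132840-62133089, plus strand: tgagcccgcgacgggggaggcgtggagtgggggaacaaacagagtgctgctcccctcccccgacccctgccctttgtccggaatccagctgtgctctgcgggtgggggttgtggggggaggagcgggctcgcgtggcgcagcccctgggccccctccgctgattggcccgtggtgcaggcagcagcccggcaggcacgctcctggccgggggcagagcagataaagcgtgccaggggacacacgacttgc
Cbfa2t3, chr8:122699110-122699359, minus strand: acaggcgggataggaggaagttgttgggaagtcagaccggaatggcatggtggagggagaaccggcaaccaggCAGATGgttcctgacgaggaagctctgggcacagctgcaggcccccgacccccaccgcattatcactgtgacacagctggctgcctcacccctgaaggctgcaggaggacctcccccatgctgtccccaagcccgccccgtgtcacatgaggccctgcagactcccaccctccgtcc
Neurod2, chr11:98329646-98329895, minus strand: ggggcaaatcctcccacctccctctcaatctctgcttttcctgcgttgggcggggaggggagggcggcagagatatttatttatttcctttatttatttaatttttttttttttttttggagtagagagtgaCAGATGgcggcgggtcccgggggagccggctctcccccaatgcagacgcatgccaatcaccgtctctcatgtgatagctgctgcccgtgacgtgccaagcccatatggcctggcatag
Nkx2-2, chr2:147186403-147186652, minus strand: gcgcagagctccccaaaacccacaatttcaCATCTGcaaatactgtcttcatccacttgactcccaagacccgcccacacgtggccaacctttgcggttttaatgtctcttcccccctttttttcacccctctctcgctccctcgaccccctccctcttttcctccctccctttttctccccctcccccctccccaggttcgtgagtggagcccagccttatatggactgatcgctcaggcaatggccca
The motif began 177 bases before the start of Cbfa2t3 and 220 before that of Nkx2-2, and in Neurod2 it lay closer to the start than in both of these. Further motifs lay 30 bases before the start of Cck and 49 before that of Mmd2, both also higher in these cells. The second listed window of Cbfa2t3 and those of Gadd45a, Btbd17, Hes6 and Smarcd2 had none. Windows of Mdk, Pax4 and Mfng were not used here. Of the genes called higher below, 73 matched the table and 12 of these had the motif (16.4%). Of the 285 called lower 212 matched and 17 had it (8.02%). Over all 27025 genes with a window the share was 14.5%, and over the 6471 of them that were also measured at 10 CPM or more it was 8.79%. A match is a string of letters in a window and does not show binding.

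In GRCm38 with GENCODE M21, Neurog3 spans 62133090 to 62134763 of chromosome 10, plus strand. Its level in the members ran from 1045 to 14550.1 CPM, with a median of 4115 CPM. The summed counts of the members gave 4404 CPM on EA01, 4223 on EA02, 4501 on EA03, 3422 on EA05, 4977 on EA06 and 6308 on EA07, a mean of 4639 ± 962 CPM (SD over the 6 plates). The other cells stood at 11.2 CPM on EA05 and between 69.8 and 119.8 CPM elsewhere, a mean of 83.9 ± 39.9 CPM. Of the other cells, 217 were below 20 CPM, and 200 of these below 1 CPM. A further 61 cells, called Neurog3-low here, lay at 20 CPM or more and below 1000 CPM. Within the members 26 cells were below 2000 CPM, 46 were between 2000 and 4000, 61 were between 4000 and 8000, and 18 were at 8000 CPM or more. The closest cell outside the rule had 937 CPM (EA02) and the closest inside 1045 CPM (EA03), and both had Mdk, Hes6, Cbfa2t3, Gadd45a and Btbd17 at 215 CPM or more. The 4 next cells outside, at 889 to 905 CPM, had no count of Gadd45a and Btbd17. The 2 next cells inside, at 1047 and 1090 CPM on EA07, also lacked markers: the first had no count of Hes6, Cbfa2t3 and Gadd45a, and the second none of Cbfa2t3, Btbd17 and Mdk.

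**Figure D1:**
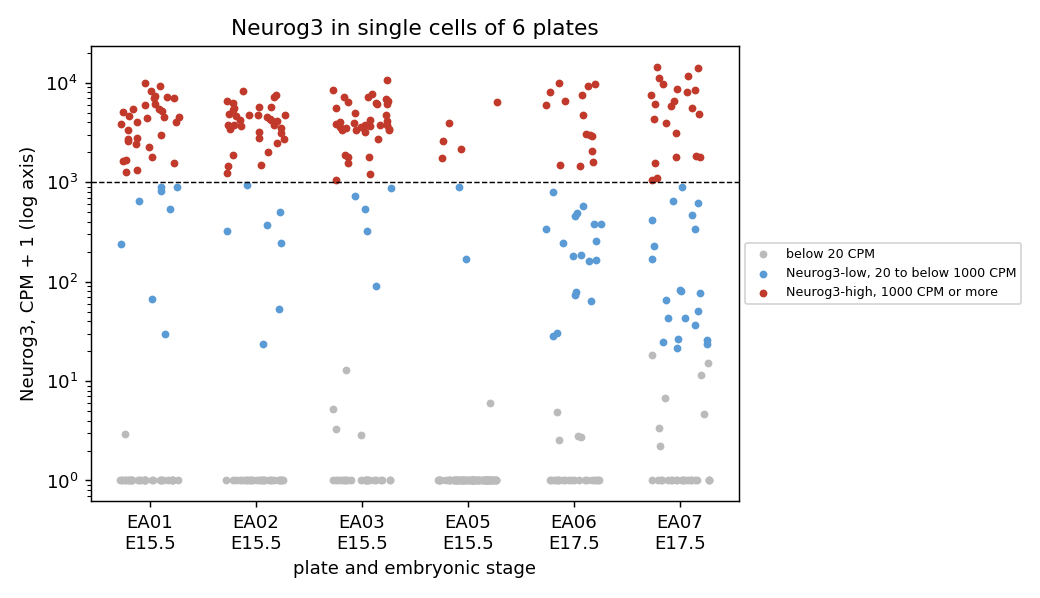
Neurog3 in each of the 429 cells of 6 plates, as CPM + 1 on a log axis, by plate and stage, with the 1000 CPM rule as a dashed line. Red points are the Neurog3-high cells, blue points the 61 Neurog3-low cells and grey points the 217 cells below 20 CPM. The Neurog3-high cells span 1045 to 14550.1 CPM, and EA05 holds 5 of them.

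The share of Neurog3-high cells was 45.2% on EA01 (33 of 73 cells, exact 95% interval 33.5 to 57.3), 50% on EA02 (36 of 72), 55.7% on EA03 (39 of 70), 5.88% on EA05 (5 of 85, 1.94 to 13.2), 26.3% on EA06 (15 of 57) and 31.9% on EA07 (23 of 72). These intervals are Clopper-Pearson intervals and, like every interval here, cover counting error only. On EA01 to EA03 the share also went with the well row: 71.3% of the cells in rows A, B, E and F were members (97 cells), against 11 of 64 in rows C and G and 0 of 15 in rows D and H (exact upper end 21.8%). On EA06 and EA07 the shares in these sets of rows were 30.8%, 29.7% and 25.9%. Counts per cell in the members ranged from 207389 to 1182889, and EA07 was the deepest plate (median 873763 counts and 3843 genes in members, against 469360 to 563931 counts and 2105 to 2418 genes on the others). The ribosomal RNA gene Rn45s took a median of 23.7% to 25.3% of a member's counts on EA01 to EA03 and 8.92% to 12.04% on EA05 to EA07.

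The 5 other markers of Neurog3-high progenitors were all higher in the members than in the other cells on each of the 6 plates. They had been picked with these data in view, so their direction is a description. Cbfa2t3, a corepressor of the ETO family (chromosome 8 at 122625141 to 122699109), stood in the members at 493, 689.8, 684, 533, 647 and 199.7 CPM on EA01, EA02, EA03, EA05, EA06 and EA07. In the other cells of those plates it stood at 59.1, 86.2, 89.8, 69.4, 62.3 and 30.3 CPM. The ranges over plates did not overlap, and the mean log2 ratio within a plate was 2.90 ± 0.24 (SD, 6 plates), the narrowest spread of the 6 markers.

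Gadd45a, a stress-induced gene that slows the cell cycle (chromosome 6 at 67035096 to 67037457), stood in the members at 215, 528, 419, 125.4, 294 and 448 CPM in the same order of plates. In the other cells it lay between 14.3 and 31.3 CPM. EA05 was the lowest plate, and the mean log2 ratio was 3.46 ± 0.68. Btbd17, a BTB domain gene (chromosome 11 at 114791217 to 114795945), stood in the members at 375, 508, 581, 227, 207 and 657 CPM. The other cells lay between 14.7 and 50.3 CPM, and the mean log2 ratio was 3.57 ± 0.56.

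Hes6, a relative of Hes1 that counteracts it (chromosome 1 at 91411483 to 91414038), was at 931, 898, 867, 628, 320.1 and 773 CPM in the members. The other cells lay between 55.9 CPM on EA06 and 306 CPM on EA03, below the members on each plate, with a mean log2 ratio of 2.33 ± 0.69. Mdk, which encodes the secreted growth factor midkine (chromosome 2 at 91929805 to 91932297), was at 2149, 2433, 2422, 1558, 1871 and 951 CPM. The other cells lay between 97.4 and 807 CPM, with a mean log2 ratio of 2.56 ± 0.62. Within well rows A, B, E and F alone the ratios were 1.74 for Hes6 and 1.90 for Mdk. Ratios here and below are of CPM + 5, so they understate the difference of genes near 0.

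Not each member had each marker. At 20 CPM or more, Mdk was found in 96.7% of members, Cbfa2t3 in 88.7%, Hes6 in 86.1%, Gadd45a in 69.5% and Btbd17 in 67.5%. In the 217 cells below 20 CPM of Neurog3 the shares were 42.4% for Mdk, 35.5% for Hes6, 29.95% for Cbfa2t3, 11.5% for Gadd45a and 10.6% for Btbd17. Such shares, here and below, are pooled over plates unless a plate is named. EA05 held 78 of the 217 cells but only 5 members, so plate differences enter the gap between the classes. All 5 were found in 63 members, 4 of them in 56, 3 in 17, 2 in 13, 1 in 1 member and none in 1 member.

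**Figure D2:**
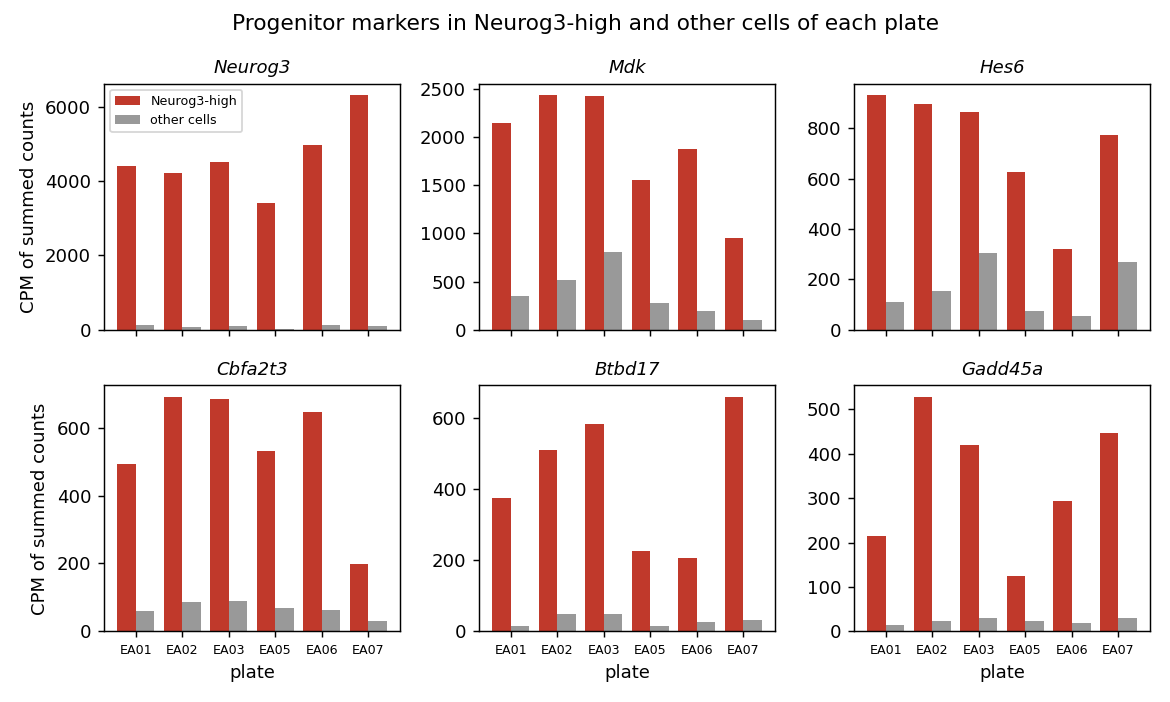
CPM of summed counts of Neurog3 and the 5 other markers in the Neurog3-high cells (red bars) and the other cells (grey bars) of each of 6 plates, 1 bar per plate and class, with axes from 0. The red bar is above the grey bar in each panel and plate, with Gadd45a at 125.4 to 528 CPM in red and 14.3 to 31.3 CPM in grey.

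Across the table, a gene was called higher in the members when its mean log2 ratio over the 6 plates was above 1 and each plate was above 0.5, and lower by the mirrored rule. Of 8848 genes with a mean of at least 10 CPM over both classes, 1.14% were called higher and 285 lower (3.22%). The median log2 ratio of all 8848 genes was -0.29, and on EA05, with 5 members, it was -1.20. Each gene's ratio is best read against that shift.

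After Neurog3 and the markers, the leading genes among those called higher were Tgm7 (a transglutaminase), Tmem171, Ppp1r14a (an inhibitor of myosin phosphatase), Neurod2, Megf6, Krtap17-1, Smarcd2 (a subunit of the SWI/SNF chromatin remodeller), Mmd2 and Amotl2 (an angiomotin family member). Tgm7 was at 407 CPM in the members of EA05, at 194 CPM on EA01, 257 CPM on EA03, 40.3 CPM on EA06 and 31.8 CPM on EA07, with EA02 next below EA01. Its other cells were at 41.97 CPM or below on each plate, and the mean log2 ratio was 3.49 ± 1.11. It was found at 20 CPM or more in 55 members (36.4%), so it marked a subset of them. Within well rows A, B, E and F alone its ratio was 1.32.

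Smarcd2 was the most widely read of these, at 20 CPM or more in 74.8% of members and in 26.7% of cells below 20 CPM of Neurog3. Its mean level was 671 ± 364 CPM in the members and 104.1 ± 63.4 CPM in the other cells (log2 ratio 2.66 ± 0.57). Amotl2 had a log2 ratio of 2.56 ± 0.83, Mmd2 of 2.59 ± 0.85, Megf6 of 3.02 ± 1.17, Ppp1r14a of 3.21 ± 0.48, Tmem171 of 3.33 ± 1.29 and Krtap17-1 of 2.76 ± 1.37. Tmem171, Megf6 and Krtap17-1 were each at 20 CPM or more in about 3 members in 10 (28.5%, 30.5% and 29.8%).

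Among the endocrine transcription factors and corepressors, 6 of the 25 measured genes were called higher, 1 was called lower and 18 were neither, with a list median of 0.16. Neurod2, a relative of Neurog3 and Neurod1, was at 53.7, 63.6, 42.7, 57.5, 108.01 and 48.8 CPM in the members of the plates in order. Its other cells ranged from 0 on EA01 to 9.58 CPM on EA03, so the groups did not overlap, and the log2 ratio was 3.20 ± 0.88. It was read at 20 CPM or more in 63 members (41.7%) and in 0.9% of cells below 20 CPM of Neurog3.

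Pax4, a factor of the beta and delta lineages, was at 1460.4, 1250.2, 1390.0, 1117, 755 and 808 CPM in the members. In the other cells it lay between 88.2 CPM on EA05 and 395 CPM on EA03 (log2 ratio 2.46 ± 0.73). Its E17.5 plates were the lowest of the members and still stood above every plate of the other cells. Nkx2-2, a homeobox gene needed for beta cells, had a log2 ratio of 1.17 ± 0.32 and was read in 92.7% of members. Cbfa2t2, the second ETO family corepressor gene here, had a log2 ratio of 1.93 ± 0.76. Sox4, which acts with Neurog3 early in this lineage, had a ratio of 1.78 ± 0.44 and was at 497 CPM on EA07 against 38.2 to 105.1 CPM in the members of the other plates.

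Neurod1, a target of Neurog3 kept on in islet cells, was neither higher nor lower by the rule. It stood at 795 ± 247 CPM in the members and 577 ± 148.2 CPM in the other cells (log2 ratio 0.44 ± 0.79, above 0 on 4 plates), and its exons overlap those of Cerkl in the annotation. Insm1 (1.15 ± 0.80), Myt1 (1.28 ± 0.61), Rfx6 (0.80 ± 0.67) and Tox3 (1.38 ± 0.63) had positive means and missed the rule. Factors of later endocrine cells had negative means: Isl1 at -1.81 ± 1.68, Pax6 at -1.49 ± 0.72, Pdx1 at -1.72 ± 0.87 and Fev at -1.18 ± 1.02, none of them past the rule. Hhex, a delta cell factor, was called lower (-3.03 ± 2.25).

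Of the Notch genes, Mfng, which encodes a glycosyltransferase that modifies Notch receptors, was the 1 of 8 measured receptor and modulator genes called higher. It was at 358, 216, 227, 68.9, 158 and 289 CPM in the members and between 23.4 and 81.9 CPM in the other cells, with a log2 ratio of 2.15 ± 0.77. EA05 was the low plate of the members. Among 4 measured ligand genes, Dlk1 was called lower (-2.38 ± 1.57), and the Neurog3 target Dll1 was at 14.02 ± 19.9 CPM in the members and 7.41 ± 12.7 CPM in the other cells. Dll1 was at 20 CPM or more in 9 members (6.0%). Dll3 had a log2 ratio of 1.69 ± 1.18 and Dll4 of -0.01 ± 1.66. Hes1 was at 53.5 ± 45.6 CPM against 32.1 ± 26.5 CPM (0.29 ± 2.16), and 11 members had it at 20 CPM or more (7.28%).

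Of 12 measured cell cycle exit genes, 4 were called higher and none lower, with a list median of 0.67: Gadd45a, Ccng2 (a cyclin that restrains proliferation, 1.63 ± 0.73), Gadd45g (1.57 ± 0.56) and Btg2 (an antiproliferative gene, 1.14 ± 0.55). Btg2 was read in all members but 1. Cdkn1a, which encodes the cell cycle inhibitor p21, was at 1017, 666, 765, 135.9, 1404 and 2266 CPM in the members and at 306, 436, 844, 244, 652 and 589 CPM in the other cells. It was higher on 4 plates and lower on EA03 and EA05. None of 13 measured cyclin D and S phase genes and none of 5 G2 and M genes was called, and 3 or more G2 and M genes were read together in 4 members and 5 other cells.

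Among 18 epithelial genes 2 were called higher and 1 lower. Cldn6, an early tight junction claudin, was at 1053 ± 213 CPM in the members and 273 ± 86.6 CPM in the other cells (1.96 ± 0.61), Krt8 at 1313 ± 442 against 685 ± 363 CPM (1.01 ± 0.37), and the annexin gene Anxa4 was lower (-1.50 ± 0.65). Prox1, a factor of the pancreatic epithelium, was the 1 of 8 progenitor and duct factors called higher (1.47 ± 0.67). Sox9, the factor of the bipotent duct epithelium, was at 86.2 ± 30.6 CPM against 56.3 ± 29.8 CPM (0.62 ± 0.56), a difference of the size of its spread. None of 9 measured duct markers was called, while 3 or more markers of the duct list were read together in 71.5% of members and 34.2% of other cells, pooled over plates. Spp1, the duct gene for osteopontin, ranged from 0 to 1266 CPM over the members' plates and from 13.4 to 1357 CPM over those of the other cells.

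Hormone genes set the other direction. Of 12 measured, 7 were called lower and Cck was called higher, with a list median of -4.59. Ins2 was at 29.1, 1.54, 9.81, 18.2, 0.117 and 4.21 CPM in the members and between 2775 and 9640.1 CPM in the other cells (-8.82 ± 0.91). Reads of Ins1 and Ins2 can be shared between these near-identical genes. Iapp, which encodes amylin (-8.24 ± 1.76), Ins1 (-8.43 ± 1.29), Gcg (-7.41 ± 2.50), Sst (-6.31 ± 2.92) and Pyy (-4.78 ± 3.31) followed, and Gip had no count in any member. Ghrl and Ppy missed the rule: Ghrl was at 2328 CPM in the members of EA07 against 533 CPM in the other cells, and lower than the other cells on the other 5 plates. Cck, a gut peptide gene, was at 619.9, 521, 609.6, 649, 1376 and 247 CPM in the members and between 44.3 and 299.8 CPM in the other cells (2.21 ± 1.35).

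None of the 26 measured granule genes was called higher, 14 were called lower, and the list median was -2.32. Scg2, a granin, had a log2 ratio of -6.01 ± 1.15, Slc30a8, the zinc transporter of granules, of -4.68 ± 1.14, Cpe, a processing enzyme, of -2.18 ± 1.27 and Scgn, a calcium sensor, of -2.53 ± 1.20. G6pc2 had 1 count in all members together. Chga, the major granin, was not called (-0.86 ± 1.85): on EA05 and EA06 the members were higher (1098 against 391 CPM and 1125 against 518 CPM), and on the other plates lower. Markers of mature islet cells were called lower in 6 of 8 for beta cells, 4 of 7 for alpha cells (with Ttr at -2.48 ± 0.36 and Slc38a5 at -2.30 ± 0.85), 3 of 4 for delta cells (with Rbp4 at -4.22 ± 1.34, while Pax4, the fourth of that list, was called higher) and 1 of 2 for PP cells, and in none of 4 for epsilon cells. Among 4 serotonin genes Maob was called lower (-4.96 ± 0.90).

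**Figure D3:**
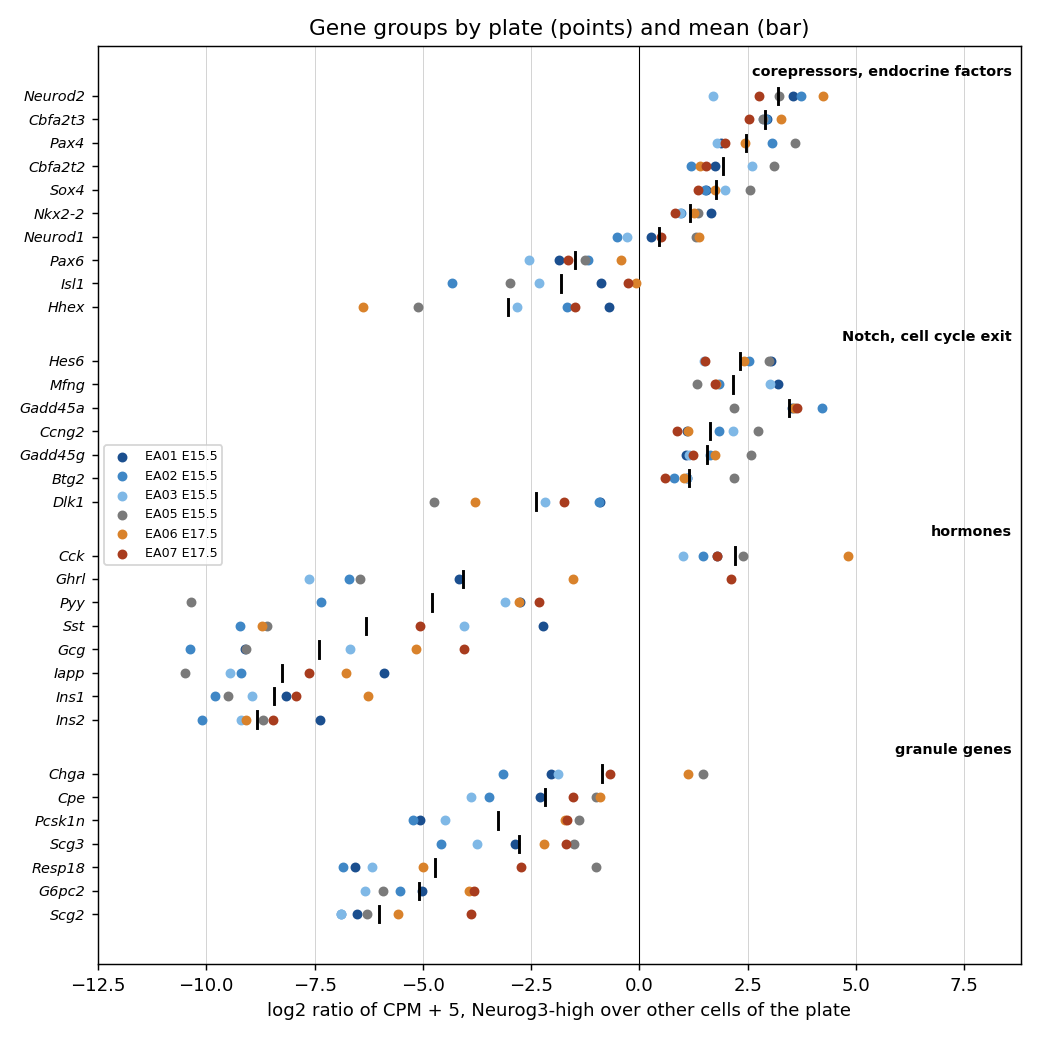
Log2 ratio of CPM + 5 between the Neurog3-high and the other cells of a plate (points coloured by plate, bar at the mean of 6 plates) for genes of 4 groups. Pax4, Cbfa2t3 and Hes6 lie right of 0 on each plate, Ins2 lies near -8.82 on average, and Chga and Neurod1 have plates on both sides of 0.

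The other cells are a mixture, and many made hormones. Against only those other cells that had no hormone gene at 1000 CPM, 83 genes were called higher, of which 56 had also been called higher above. Called lower were 1.599% of those measured, of which 97 were among the 285. The ratios of the markers stayed positive on this comparison, at 2.21 for Hes6, 2.38 for Mdk and 4.21 for Btbd17, and that of Pax4 was 1.89. Ins2 was then at -1.30, and among the hormone genes named here Gcg changed sign from -7.41 to 0.24, Sst from -6.31 to 0.98 and Ghrl, which had missed the rule, from -4.06 to 1.66. The cut was put on the other cells alone, and the members kept their 8 cells with a hormone gene at that level. The direction of these hormone shifts was thus set by the cut and is no finding about the members. The 8 endothelial markers had no count in the members, and neither did 6 of 15 acinar markers, among them Prss1, Cel and Ptf1a, or 8 of 11 mesenchyme markers, among them Col1a1 and Pdgfra. The summed level per plate of the acinar markers was 0 to 329 CPM in members and 16.2 to 1752.5 CPM in other cells. That of the mesenchyme markers was 0 to 105.1 against 19.2 to 456 CPM, of the immune markers 0 to 30.02 against 0.340 to 9.79 CPM, and of the erythroid markers 0 to 6.81 against 1.20 to 16.6 CPM. Duct markers summed to 1918 to 3815 CPM in members and 515 to 2822 CPM in other cells, and the neural crest and glia list, in which Foxd3 had no count in members, to 287 to 597 against 151.01 to 305 CPM. Of the marker genes with enough counts to be measured, none of 5 acinar, 2 mesenchyme or 1 neural crest gene was called, nor was any of 11 immediate early genes. Doublets were not called, and their part in these values was not tested.

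The next comparison set the members beside the Neurog3-low cells of the same plate, the closest cells by the gene of the rule, on the 5 plates with at least 5 of each. Of 8749 genes measured, 168 were called higher in the members (1.92%) and 90 lower (1.03%), with a median of 0.16 over all genes. The calls against the other cells use the same members, so they are not independent. Of the genes called higher, 30 were shared with those above (29.7% of those, 17.9% of these), and of the genes called lower 39 were shared (13.7% of the 285, 43.3% of the 90).

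Gadd45a had the largest ratio of the genes named here, with 23.9 CPM in the Neurog3-low cells and a log2 ratio of 4.08 ± 0.89 (SD, 5 plates, lowest 3.06). Btbd17 (2.81 ± 1.09), Cbfa2t3 (2.73 ± 1.097), Hes6 (1.90 ± 1.05) and Mfng (2.45 ± 2.18) were also called higher, while Mdk was above 1 on average and missed the rule (1.76 ± 1.13, lowest 0.26). The zinc finger gene Myt1, which acts with Neurog3, was called here (1.90 ± 0.91) and not against all other cells. Pax4 was at 1.58 ± 0.99 and Neurod2 at 2.80 ± 1.73, with lowest plates of -0.07 and -0.25. Further genes called higher were Epb4.2 (3.96 ± 1.73), Slco4a1 (3.57 ± 1.72), Megf11 (3.51 ± 1.68), Acadsb (3.11 ± 1.28) and Mmd2 (2.97 ± 1.52). The replication genes Mcm5 (2.25 ± 0.96) and Rrm1 (2.16 ± 1.43) were the 2 called of 14 measured cyclin D and S phase genes, both at low levels (mean of 0.340 CPM for Mcm5 and 25.2 CPM for Rrm1 in the Neurog3-low cells). Of the acinar markers Ctrb1, a digestive enzyme gene, was called (2.11 ± 0.63).

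Of 24 measured granule genes 7 were called lower than in Neurog3-low cells and none higher: Pcsk2 (-3.40 ± 1.66), Pam (-2.56 ± 1.06), Scgn (-2.39 ± 1.12), Pcsk1n (-2.36 ± 1.07), Scg3 (-2.23 ± 1.33), Cpe (-2.06 ± 1.08) and Scg5 (-1.73 ± 0.73). Iapp (-5.67 ± 1.4998), Ins2 (-4.77 ± 1.93) and Pyy (-1.95 ± 0.64) were the 3 of 10 hormone genes called lower. Rbp4 (-3.02 ± 1.01), Tmem27 (-3.20 ± 1.82), Fxyd6 (-3.08 ± 1.62) and Glb1l2 (-3.92 ± 1.61, whose exons overlap B3gat1) were lower as well, as were the pan-endocrine factor gene Pax6 (-1.49 ± 0.49) and the decarboxylase gene Ddc (-1.41 ± 0.89). Isl1 was at 20 CPM or more in 19.9% of members, 59.02% of Neurog3-low cells and 83.9% of cells below 20 CPM of Neurog3, and Fev in 13.2%, 57.4% and 52.5%. Neurod1 was in 72.2%, 88.5% and 87.1%. These shares are pooled over plates, and the plates differ in their mix of classes: 39 of the 61 Neurog3-low cells were from E17.5, and 78 of the 217 cells below 20 CPM were from EA05. Within each of the 6 plates the share with Isl1 was lowest in the members, higher in Neurog3-low cells and highest below 20 CPM, from 15.2% to 50% and 78.1% on EA01 and from 60% to 72.2% and 79.2% on EA06. The share with Fev was lowest in the members of each plate too, and between the other 2 classes it had no common order: below 20 CPM it was smaller than in Neurog3-low cells on EA01, EA02 and EA07, larger on EA03 and EA06 and equal on EA05. EA05 had 2 Neurog3-low cells, and EA01 to EA03 had 5 to 8.

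Among themselves the members differed in which factors they had. At 20 CPM or more, Pax4 was in 74.8%, Neurod1 in 72.2%, Chga in 72 members (47.7%), Sox9 in 69 (45.7%), Spp1 in 40 (26.5%), Isl1 in 30 (19.9%) and Fev in 20 (13.2%). The share with Sox9 was 30.5% at 100 CPM. Sox9 and Neurod1 were found together in 47 members (31.1%) and Sox9 and Pax4 in 48 (31.8%). Given the single shares above, both counts are about those of genes that vary independently. They show duct and endocrine factors in the same cells, and no preference for the same cells. Isl1 without Pax4 was found in 17 members. A hormone gene reached 1000 CPM in 8 members: Ghrl in 6, all at E17.5, and Sst with Ppy in 2. No member had Ins1, Ins2 or Gcg at that level. Each of the 6 Ghrl cells had Isl1 at 20 CPM or more and none had Pax4.

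Across the members of a plate, the level of Neurog3 was set beside that of 3779 genes with Spearman's rho on the 5 plates with at least 10 members. Levels in a cell share its depth and total, so these values are descriptions with no p. Pax4 had the largest mean rho, 0.39 over 5 plates, with 0.43 on EA01, 0.08 on EA02 and EA03, 0.70 on EA06 and 0.64 on EA07. Miat, a long noncoding RNA (0.35), Slc31a2 (0.30), Ldb1 (0.30, exons overlapping Pprc1), Dhrs4 (0.29) and Smarcd2 (0.29) followed. Isl1 had the lowest mean, -0.31, with -0.15, -0.10 and 0.07 on EA01, EA02 and EA03 and -0.76 and -0.60 on EA06 and EA07. Ppid (-0.30), Akr1c19 (-0.29), Rab12 (-0.28), Peg3 (-0.28) and Fam183b (-0.28) came next. Of the 5 markers, Gadd45a was at 0.43 and 0.69 on EA06 and EA07 (-0.10 to 0.13 on EA01 to EA03), Mdk at 0.49 and 0.50 (-0.10 to 0.09) and Cbfa2t3 at 0.34 and 0.38 (-0.19 to 0.04). Hes6 was at 0.23 and 0.49 (-0.07 to 0.21) and Btbd17 at 0.10 and 0.54 (-0.24 to 0.01), so on EA06 these 2 were close to the E15.5 plates. EA06 and EA07 had 15 and 23 members against 33 to 39 on EA01 to EA03, and rho scatters more over fewer cells. The median Neurog3 of E17.5 members with Isl1 was 2484 CPM and of those without 7837 CPM, and at E15.5 the medians were 3362 and 4013 CPM.

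**Figure D4:**
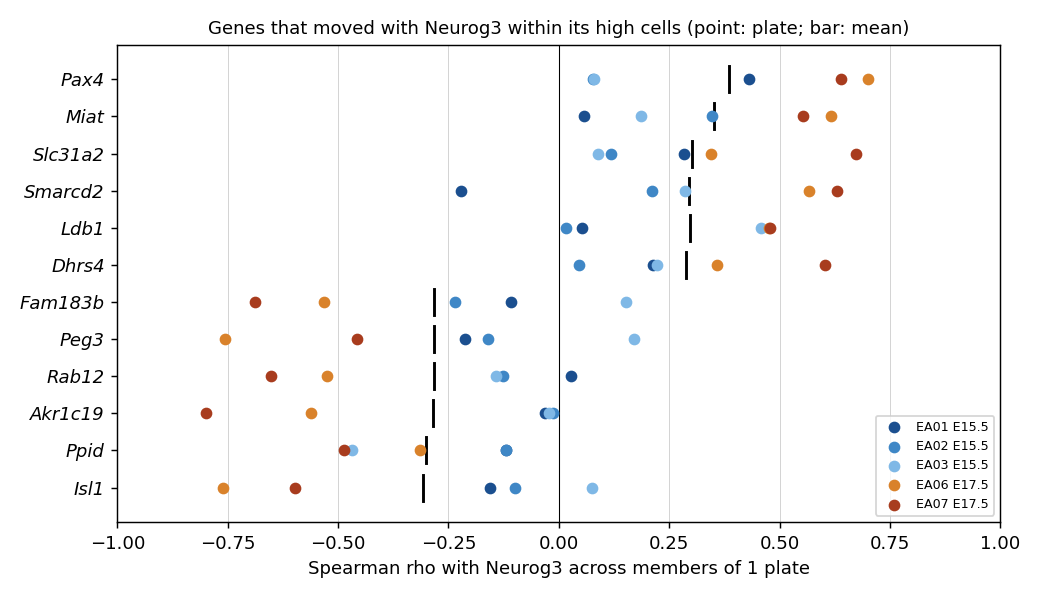
Spearman rho with Neurog3 across the Neurog3-high cells of a plate (points coloured by plate, bar at the mean of 5 plates) for the 6 genes with the largest positive and the 6 with the largest negative means. For Pax4 the points of EA06 and EA07 are at 0.70 and 0.64 and for Isl1 at -0.76 and -0.60, while the points of EA02 and EA03 are near 0 for both.

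The last comparison set the 38 members at E17.5 beside those at E15.5. Stage and genotype changed together and cannot be told apart. The processing of the plates did not run wholly with stage. The E15.5 plate EA05 shared the ending of its column names with EA06 and EA07. Its median Rn45s share in members was 10.4%, against 23.7% to 25.3% on EA01 to EA03. With 2 plates against 4, a gene was called when the plate means of log2(CPM + 5) differed by more than 1 and the ranges did not overlap. Of 8485 genes measured, 914 were called higher at E17.5 (10.8%) and 204 lower (2.4%), with a median difference of 0.30 over all genes. With TMM factors the median was 0.16 and 69.8% of the calls were higher, and with totals without Rn45s 0.16 and 70.5%, against 81.8% of the calls as printed. Against EA05 alone, with 5 members and chosen after seeing the data, the differences of 73 named genes moved by more than the SD over the E15.5 plates. Those of 35 did not. Chga went from 2.57 to 0.64 and Cdkn1a from 1.78 to 3.67. The part of processing in the stage differences was not tested. Neurog3 itself was at 5643 CPM on average over the E17.5 plates and 4138 ± 491 CPM over the E15.5 plates (0.45), and none of the 6 markers was called. Hes6 (-0.72), Cbfa2t3 (-0.71) and Mdk (-0.66) had lower means at E17.5, within overlapping ranges.

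Ghrl, which encodes the epsilon cell hormone ghrelin, was at 1908 and 2328 CPM in the members of EA06 and EA07 and at 0, 4.38, 0 and 0 CPM in those of EA01, EA02, EA03 and EA05. The ranges did not overlap, and the log2 difference was 8.50. Without the members that had a hormone gene at 1000 CPM it was 2.80, so a few hormone cells carried most of that level. Mboat4, the enzyme gene that acylates ghrelin, was higher too (3.24), and at 0.65 without those cells, below the size of a call. The alpha markers Gcg and Tmem27 were called higher, of which Gcg was low at both stages (46.3 and 0.130 CPM). Tmem27 had 1 count in all E15.5 members together and 168 CPM (163 to 173) in the summed E17.5 members.

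Of the 25 measured endocrine factors and corepressors 4 were called higher at E17.5, Isl1, Foxa2 (1.31) and Peg3 (1.20) among them, and none lower, beside 10.8% and 2.4% of all genes. Isl1 was at 1662 and 821 CPM on EA06 and EA07 and at 628, 60.01, 255 and 119.97 CPM on the E15.5 plates (2.62), and at 1.83 without the hormone cells. Of 22 measured granule genes 7 were called higher and none lower, among them Chga (2.57), Scgn (1.91), Cpe (1.70) and Pcsk1n (3.79, exons overlapping Eras). The highest E15.5 plate for Chga was EA05, at 1098 CPM from 5 members, next to 1125 CPM on EA06. Cdkn1a was at 1404 and 2266 CPM against 135.9 to 1017 CPM (1.78). The leading genes called higher also included Col9a3 (3.80, exons overlapping Tcfl5), Alcam (3.75), Maged2 (3.71, and 1.06 without the hormone cells) and Tle1, a Groucho corepressor (3.70). From the remaining lists, to be read beside the 10.8% of all genes, Krt7 (1.09) was called higher of 9 duct and of 18 epithelial genes. Mcm2 (2.04) was the 1 of 13 cyclin D and S phase genes (list median -0.36), and Mib1 (1.28) the 1 of 9 Notch receptor and modulator genes. Gadd45b (3.12) and Cdkn1a were 2 of 11 cell cycle exit genes, and Jund (2.29) and Atf3 (1.65) 2 of 11 immediate early genes. Ctrb1 (3.67) was 1 of 3 acinar genes. None of 6 G2 and M genes was called (list median -1.88).

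Among genes lower at E17.5, Ttll6, which encodes a tubulin polyglutamylase, was at 437, 265, 279.9 and 132.8 CPM in the members of EA01, EA02, EA03 and EA05 and had no count in those of EA06 and EA07. With 3 counts over all E17.5 members as the floor, it was at least 3022-fold lower at E17.5. The other cells of EA06 and EA07 had no count of it either. Mt2, a metallothionein gene, was at 6.02 against 154.7 ± 47.3 CPM (-4.07), the GDNF family receptor gene Gfra3 at 40.1 against 357 ± 247 CPM (-3.83), Cdk7 at -3.53, Nmral1 at -3.39, the transporter gene Slc16a5 at -3.35 and Tgm7 at -2.56.

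Shares of members at 20 CPM or more were also compared, and their intervals are over cells and not over embryos. Isl1 was in 16 of 38 members at E17.5 (42.1%, 26.3 to 59.2) and in 14 members at E15.5 (12.4%, 6.94 to 19.9). By plate, Isl1 was in 60% and 30.4% on EA06 and EA07 and in 10.3% to 20% on the E15.5 plates. Chga was in 73.7% at E17.5 and 38.9% at E15.5, but its plates overlapped: EA05, with 5 members, was at 80%, above EA06 (66.7%) and EA07 (78.3%), and EA01 to EA03 were at 30.6% to 42.4%. Fev was in 26.3% and 8.85%, and the E17.5 share rested on EA07 (34.8%), since EA06 (13.3%, 2 of 15 members) lay within the E15.5 plates (5.13% to 20%). Ghrl was in 26.3% and 0.885%, with 33.3% on EA06 and 21.7% on EA07. The reverse was found for Pax4, at 57.9% and 80.5% (60% and 56.5% on EA06 and EA07, 77.8% or more on each E15.5 plate), and for Spp1, at 5.26% and 33.6%, where EA05 had none in its 5 members. Neurod1 (78.9% and 69.9%) and Sox9 (55.3% and 42.5%) had overlapping intervals. The intervals of Pax4 and of Fev at the stages overlapped at their ends too, and those of Chga, Isl1, Ghrl and Spp1 did not. The members of EA07 were deeper than those of the other plates, while EA06 (median 536762 counts) lay within the E15.5 plates (469360 to 563931). After each cell was thinned to 200000 counts the shares were 73.7% and 38.1% for Chga and 55.3% and 44.2% for Sox9. The other shares in this paragraph were as given.

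**Figure D5:**
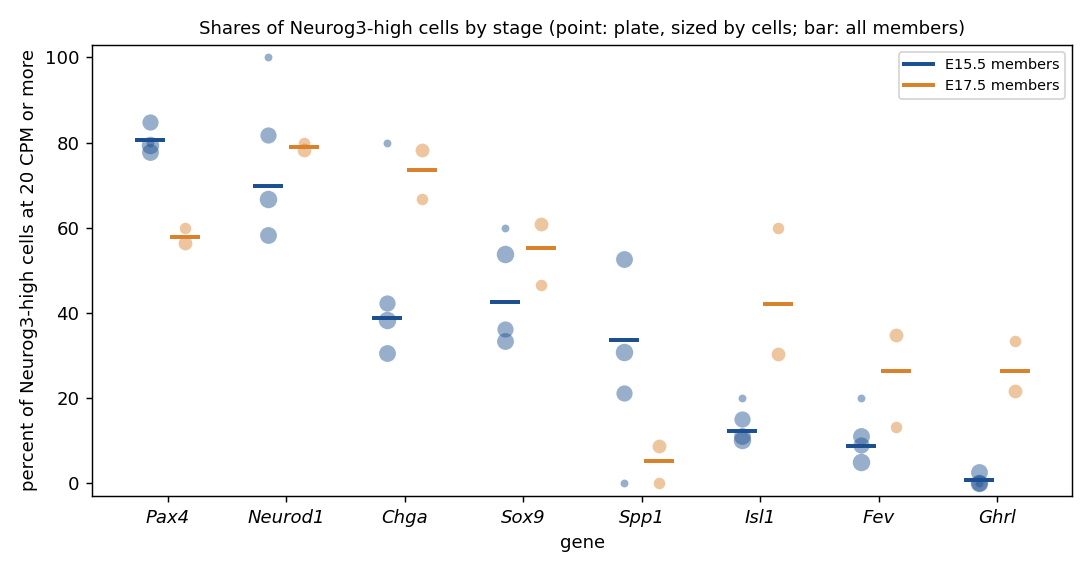
Share of Neurog3-high cells with a gene at 20 CPM or more, by gene, for E15.5 (blue) and E17.5 (orange). Points are plates, sized by their number of members (5 to 39), and bars are all members of a stage. Chga, Isl1, Fev and Ghrl have higher bars at E17.5, and Pax4 and Spp1 lower ones, at 57.9% against 80.5% for Pax4.

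Reads of the transgenes were set beside the labels. Cre was at 20 CPM or more in each of the 38 members at E17.5 and in no member at E15.5, with medians of 679.99 CPM on EA06 and 1098 CPM on EA07. In the Neurog3-low cells it was in 8 of 18 on EA06 and 15 of 21 on EA07, and in cells below 20 CPM of Neurog3 in 1 of 24 and 6 of 28. The GFP sequence was read in each E17.5 cell of any class, and in 32 members at E15.5 (7 on EA01, 11 on EA02, 13 on EA03 and 1 on EA05). The E15.5 cells are labelled as a Neurog3-eGFP knock-in, yet the median GFP of the members was 0 CPM on each of these plates. On EA01 the share with GFP was 21.2% in members and 18.8% in cells below 20 CPM of Neurog3. It was 30.6% and 13.8% on EA02, 33.3% and 11.5% on EA03, and 1 of 5 and 0 of 78 cells on EA05. The share was thus higher in the members of each E15.5 plate, with overlapping intervals on each. The highest E15.5 value, 1080 CPM on EA02, was in a cell below 20 CPM of Neurog3. At E15.5 GFP reads thus do not check the knock-in label cell by cell, and the groups rest on the labels.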

How the data were processed

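Gene counts of single pancreatic cells (23002 genes in 495 cells) were used as deposited. They are raw counts of reads per gene that the authors made from Smart-Seq2 libraries with STAR, HTSeq and FastQC on mm10, per the submitters' processing notes, with versions not given in the sources used here. A read count without molecular identifiers is no molecule count, and Smart-Seq2 does not mark strand, so reads of overlapping genes cannot be told apart.

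Each cell's counts were scaled to CPM, and cells with 1000 CPM or more of Neurog3 on the 6 plates (151 cells) were the members. Counts were summed per plate and class, and log2 ratios of CPM + 5 were formed within a plate and averaged over plates with equal weight (SD over plates), for plates with 5 or more cells of each class and genes with a mean of 10 CPM or more. A gene was called when the mean passed 1 and each plate 0.5 in 1 direction, which gave 101 higher genes against all other cells. Since the labels name no animal, no test across samples was made. Shares carry exact binomial 95% intervals. The genes named are the 12 with the largest ratios in each direction against the other cells (6 in each direction for the other comparisons), at 50 CPM or more in the higher class and 10 CPM or more in 25% of its cells, the markers, up to 4 measured genes from each list, the 6 with the largest Spearman rho in each direction and a fixed set of factors and hormones; further list members are named where a count singles them out. The members, the markers and the 26 lists were chosen with earlier results of these data known. Doublets were not called. The calling was tested on simulated data. Alternatives changed the Neurog3 rule, the pseudocount, the scaling (TMM of edgeR 4.0.16, DESeq2 1.42.0 size factors, totals without Rn45s), the filter, the plates and wells and the depth (Python 3.11.15, numpy 2.4.6, pandas 2.3.3, scipy 1.17.1, matplotlib 3.10.9, R 4.3.3). The duct plate EA04 was not used here. A few genes of the lists are not reported here.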

Additional observations from a re-analysis of the deposited data

Results flagged for a closer look

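Among 48 named genes called against the other cells, 3 had 1 plate far from the other 5. Chance flags about 1 in 20 groups, and 3 of 48 is close to that. On EA05, which held 5 members, the log2 ratio of Neurog3 was 7.73, the highest of its plates (lowest 5.22). Neurog3 is the gene of the rule, so this flag describes the selection and is no finding. The ratio of Gadd45a on EA05 was 2.18, the lowest of its plates. On EA07 the ratio of Slc30a8 was -2.41, the smallest difference of the 6 plates.

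Of the named genes, 4 had ratios against the other cells in opposite directions at E15.5 and E17.5 on each plate. Random directions over the 6 plates would give a similar count among the named genes, so the count is no finding. All 4 genes were also among the leading genes called between E17.5 and E15.5 in the members. The same member values enter these ratios, so a stage difference in them is not independent of how the genes were named. This difference was not tested, and stage cannot be told apart from genotype. The part of library processing in it was not tested either. Tle1, a Groucho corepressor, was lower in the members on the 4 E15.5 plates (-3.61 to -0.38) and higher on the 2 E17.5 plates (0.12 and 1.54), and the stage means differed by 2.43. The metallothionein gene Mt2 was higher at E15.5 (1.02 to 3.11) and lower at E17.5 (-4.38 and -1.81), a difference of -4.81. Nmral1 differed by -3.93 (1.29 to 2.24 at E15.5, -3.68 and -1.03 at E17.5). Cdk7 differed by -3.11, and its lowest E15.5 plate was at 0.0057.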

How the results depend on the processing

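No paired analysis was possible because the labels name wells and not animals, no replicate number ties cells of different groups, and no test was made. Values in this paragraph are percent of the genes measured that were called, and a setting not named moved a count by at most 1.5 times. A count that stays can still hold other genes. In well rows A, B, E and F alone 1.42% were higher than the other cells, and only 43 of these genes were called in the main setting. Of the genes lower in these rows, 94 were among the 285 called lower in the main setting. Against the other cells, 1.14% were higher: 1.74% with Neurog3 at 2000 CPM and 1.80% without well rows D and H (both without EA05), 6.20% on EA01 to EA03 alone, 2.74% on EA05 to EA07, 6.57% on EA06 and EA07, and 1.31% to 2.05% without 1 plate (2.05% without EA05). Lower were 3.22%: 2.06% with a pseudocount of 20 CPM, 8.97% on EA01 to EA03, 10.3% on EA05 to EA07, 12.4% on EA06 and EA07, 1.599% against other cells without a hormone gene at 1000 CPM or more, 1.82% in the 4 well rows A, B, E and F (chosen, like EA06 and EA07 alone, after seeing the data), and 3.87% to 4.96% without 1 plate. Higher than in Neurog3-low cells were 1.92%: 6.11% with Neurog3 at 500 CPM (EA02, EA06 and EA07 only), 1.07% at 2000 CPM, 1.06% with a pseudocount of 20 CPM, 10.2% on EA01 to EA03, 8.31% on EA06 and EA07 (EA05 had too few Neurog3-low cells), 3.40% without hormone cells (4 plates, without EA03), and 2.87% to 4.55% without 1 plate (over 1.5 times for each plate). Lower were 1.03%: 3.87% with Neurog3 at 500 CPM (the same 3 plates), 3.60% on EA01 to EA03, 10.9% on EA06 and EA07, 1.70% without hormone cells (the same 4 plates), and 1.61% to 2.50% without 1 plate (again for each). With fewer plates a gene has fewer conditions to meet, which raises these shares by construction. At E17.5, 10.8% were higher: 41.7% against EA05 alone (chosen after seeing the data) and 11.8% to 32.1% without 1 plate (32.1% without EA06, 25.5% without EA07). Lower were 2.40%: 6.55% with Neurog3 at 2000 CPM, 6.68% without rows D and H (both leave EA05 out), 21.996% against EA05 alone, and 3.39% to 12.9% without 1 plate (12.9% without EA07, 5.69% without EA05, 5.27% without EA06). The share of members with Sox9 was 30.5% at 100 CPM. Over all alternatives, the named genes' ratios against the other cells were within 1 SD over plates in 2643 cases and moved further in 92. Leaving out 1 plate, or keeping only EA01 to EA03 or EA05 to EA07, cannot move a mean by more than 1 SD. Dropping the gene filter changes no ratio, so the cases of these settings were fixed in advance. Of the genes called, Gcg (0.24) and Sst (0.98) changed sign when hormone cells were taken from the other cells and not from the members. Genes that had missed the rule changed sign in more cases, among them Ghrl (1.66), Mboat4 (1.43) and Arg1 (0.13) in that setting and Chga (0.63) and Maged2 (0.55) on EA05 to EA07 alone. The named genes' differences between E17.5 and E15.5 held less well. They were within 1 SD over the E15.5 plates in 1836 cases and moved further in 216, and 93 genes had such a case. Against Neurog3-low cells 2209 cases were within 1 SD over plates and 31 moved further. The depth of a member, 207389 to 1182889 counts, limits what a gene at 0 in 1 cell shows.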
